A study of Mus musculus with 28 samples.

Results

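The 8 genes described here, Clca4a, Clca4b, Ceacam20, Ephx2, Pkib, Nlrp6, Ceacam1 and Neat1, were taken by gene name as further markers of the villus tip, the end of the intestinal villus where enterocytes are most mature. All 8 were found, among 29413 genes of a table on BMP ligands and among 55416 genes of a table on Tgfb. RNA was measured by mRNA sequencing in small-intestinal organoids, epithelial cultures grown from crypts in a gel and without mesenchyme, from wild-type C57BL/6 mice. In the BMP table, untreated controls numbered 4 samples, and 4 received recombinant BMP2, while BMP3, BMP4, BMP5 and BMP7 went to 3 samples each. In the TGFb table, untreated controls, 3 samples, stood against 3 samples with recombinant Tgfb. Each ligand was given at 500 ng/ml for 24 h. Of 28 samples in the series, the remaining 2 were mesenchymal cells of the duodenum from a mouse with a Pdgfra reporter, 1 fresh and 1 immortalised with a viral gene and sorted. The question was which ligand brings each marker. The labels do not say whether samples of a group came from separate cultures or animals, so p-values measure the spread between these samples only.

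Enterocytes leave the crypt, move up the villus and are shed at its tip, and their expression changes on the way. BMP ligands bind serine/threonine kinase receptors and signal through SMAD1, SMAD5 and SMAD8, while Tgfb ligands signal mainly through SMAD2 and SMAD3. BMP activity is known to be high towards the villus tip and low in the crypt, where antagonists are made. The 8 markers are of different kinds. Clca4a and Clca4b belong to the calcium-activated chloride channel regulator family, and Ceacam20 and Ceacam1 are cell adhesion molecules of the carcinoembryonic antigen family. Ephx2 is soluble epoxide hydrolase, which turns lipid epoxides into diols. Nlrp6 is an innate immune sensor of the intestinal epithelium that can form inflammasomes, Pkib is an inhibitor of protein kinase A, and Neat1 is the long noncoding RNA around which nuclear paraspeckles are built.

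Promoters, from 250 bases before to 50 after a RefSeq start, were given for 5 of the 8 genes (Clca4b, Ceacam20, Ceacam1, Nlrp6 and Pkib). The 4 below are shown because these genes had different ligand patterns. They are from build GRCm38.p6, at chr3:144932480-144932779 on the minus strand (Clca4b), chr7:19965162-19965461 on the plus strand (Ceacam20), chr7:25477576-25477875 on the minus strand (Ceacam1) and chr7:140920652-140920951 on the plus strand (Nlrp6). Capitals mark CAGAC, the SMAD box, on either strand.
Clca4b: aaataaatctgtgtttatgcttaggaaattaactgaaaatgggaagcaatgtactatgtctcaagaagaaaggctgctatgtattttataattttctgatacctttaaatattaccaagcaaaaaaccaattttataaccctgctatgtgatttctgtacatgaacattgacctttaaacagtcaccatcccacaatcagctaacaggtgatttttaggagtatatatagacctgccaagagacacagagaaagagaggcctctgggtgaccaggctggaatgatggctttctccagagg
Ceacam20: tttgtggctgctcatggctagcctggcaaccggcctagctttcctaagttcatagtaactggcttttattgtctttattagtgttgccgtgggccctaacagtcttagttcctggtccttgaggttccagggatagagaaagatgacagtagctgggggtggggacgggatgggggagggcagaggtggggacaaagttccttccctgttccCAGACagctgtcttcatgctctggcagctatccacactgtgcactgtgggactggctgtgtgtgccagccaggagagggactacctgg
Ceacam1: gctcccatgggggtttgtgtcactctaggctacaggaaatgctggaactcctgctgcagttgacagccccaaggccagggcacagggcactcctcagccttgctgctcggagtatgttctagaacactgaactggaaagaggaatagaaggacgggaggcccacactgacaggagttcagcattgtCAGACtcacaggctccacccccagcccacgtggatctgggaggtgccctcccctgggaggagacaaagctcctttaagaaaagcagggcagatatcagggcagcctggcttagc
Nlrp6: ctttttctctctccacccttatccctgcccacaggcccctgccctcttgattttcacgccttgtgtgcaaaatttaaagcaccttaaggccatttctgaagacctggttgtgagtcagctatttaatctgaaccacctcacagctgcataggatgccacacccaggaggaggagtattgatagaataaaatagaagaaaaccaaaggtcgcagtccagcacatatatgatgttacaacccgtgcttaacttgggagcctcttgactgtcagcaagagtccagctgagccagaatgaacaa

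The search covered 4 motifs on both strands, none of which contains another. They were CAGAC and GGCGCC, both bound by SMAD proteins, CAAAGTCCA, an HNF4 site, and TTTATG, a CDX site. CAGAC was found at -38 bases from the start in Ceacam20 and at -64 in Ceacam1, and 49.6% of 32851 promoters of this length hold it. TTTATG was found once, at -237 in Clca4b, and 11.9% of promoters hold it. Of 2 Pkib promoters, 1 had 4 overlapping CAGAC copies. No promoter of the 5 genes held GGCGCC (in 11.9% of all) or CAAAGTCCA (in 0.475%), and Nlrp6 held none of the 4 motifs in this window.

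In the BMP table, values are normalized counts, that is reads divided by a size factor per sample. Reads assigned to genes, recovered from values rounded to 3 significant digits, summed to 21356367 to 24783119 per sample. These totals are therefore approximate. In this scale 1 read was worth 0.826 to 1.28 normalized counts. That worth followed the ligand: 0.826 to 0.888 in controls, 1.14 to 1.28 with BMP2, 1.14 to 1.20 with BMP4 and 0.845 to 0.962 in the other groups. For the same number of reads, values of BMP2 and BMP4 samples thus stand higher, and small changes with these ligands depend on the scaling. In the TGFb table, values are TPM, a length-corrected unit, whose depth is unknown. The tables were scaled separately, so tests stayed within each. All 8 genes passed the filter of a mean of at least 10 normalized counts, and 7 passed that of at least 1 TPM, with Pkib left out. Tests are limma fits on log2(value + 1), adjusted by Benjamini-Hochberg over 14746 genes (BMP table) or 12959 genes (TGFb table), with a threshold of 0.05. Id1, a direct BMP target, rose by 4.41 (log2) in BMP2 samples, 4.30 in BMP4, 2.65 in BMP5, 3.80 in BMP7 and 2.75 in Tgfb samples, each past the threshold. The 4 mesenchymal markers found in the BMP table summed to at most 54.2 normalized counts in any sample.

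The answer differed from gene to gene. With BMP2, 4 of the 8 genes rose (Clca4a, Clca4b, Ceacam1 and Neat1) and 1 fell (Nlrp6), where 36.8% of all genes tested rose and 38.4% fell. BMP4 also raised 4 (Clca4a, Clca4b, Ceacam20 and Ephx2) and lowered Nlrp6, beside 33.7% and 31.4% of all genes. With BMP5, 3 rose (Clca4a, Clca4b and Ceacam1) and Nlrp6 fell, beside 16.5% and 9.87%. BMP7 raised these 3 and Ceacam20 and lowered Nlrp6, beside 19.2% and 13.2%. With Tgfb, 4 of 7 rose (Clca4a, Clca4b, Ceacam20 and Ceacam1) and 2 fell (Nlrp6 and Ephx2), beside 27.4% and 29.3%. BMP3 moved none of them, and called 0 of all genes (0%) by limma, with 110 at an unadjusted p under 0.05, 1 called by DESeq2 and 0 by edgeR. Those 110 are fewer than the share of 0.05 expected with no change. Same-numbered control and BMP3 samples deviated together (correlations of 0.2807 to 0.5531), which this fit did not use. With replicate numbers added to the fit as a block, BMP3 still raised 0 and lowered 0 of the 8 genes. The comparisons of the BMP table use the same 4 controls. The median log2 change over the 8 genes was 1.12 with BMP2 and 1.48 with BMP4, beside -0.03 and 0.04 over all genes tested. It was 0.30 with BMP5 and 0.36 with BMP7, beside -0.03 and -0.05, and 0.59 over 7 genes with Tgfb, beside -0.04.

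**Figure D1:**
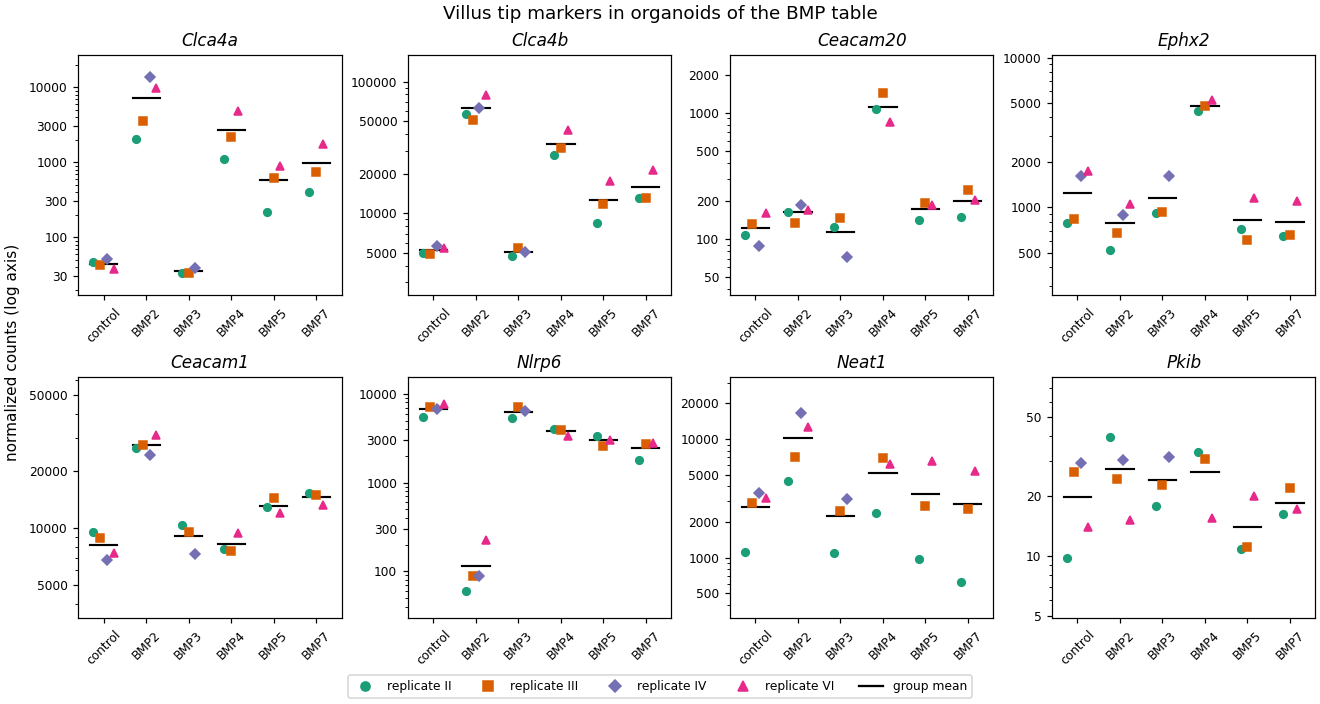
Normalized counts (log axis) of the 8 markers in each organoid sample of the BMP table, by ligand; symbols give the replicate number and black lines the group mean. Clca4a and Clca4b stand highest with BMP2, Ceacam20 and Ephx2 with BMP4, and Nlrp6 stands lowest with BMP2, at 60.2 to 228.

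**Figure D2:**
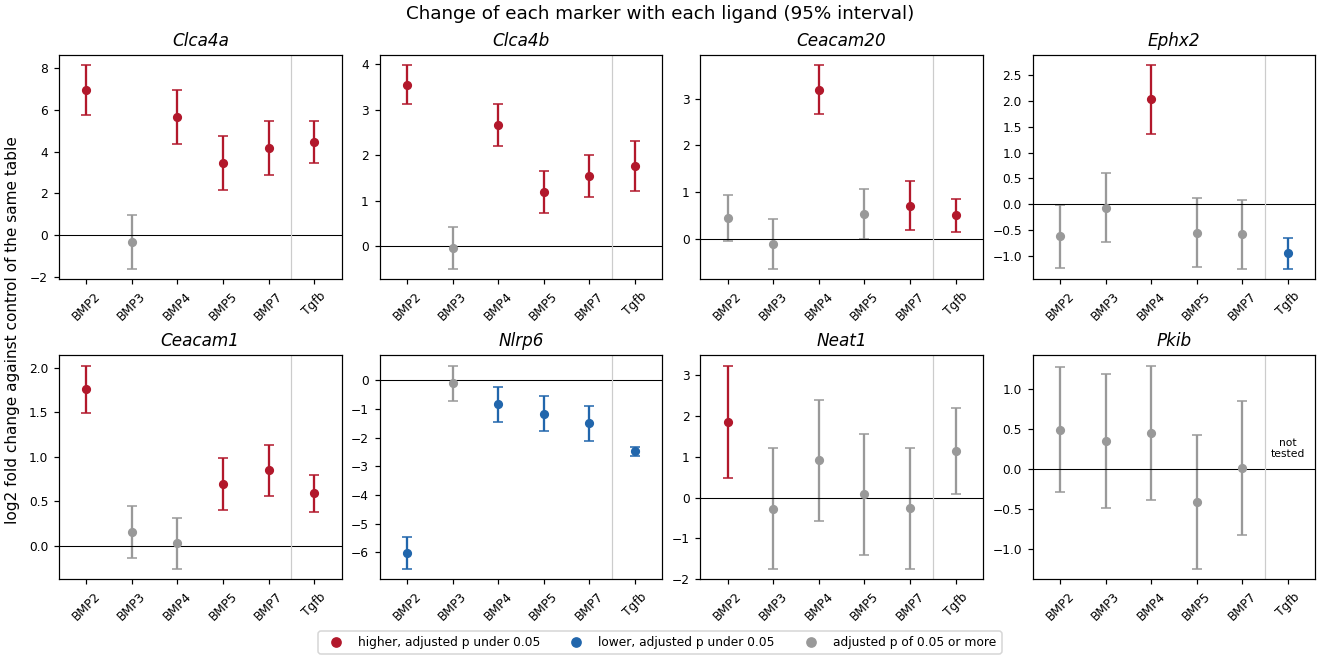
Log2 fold change of each marker against the controls of its own table (points, with 95% intervals from limma), by ligand. Red and blue mark changes past an adjusted p of 0.05, Pkib was not tested with Tgfb, and BMP3 has no coloured point.

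Clca4a was the gene that moved farthest upward. Controls held 47.1, 42.3, 50.6 and 38 normalized counts in replicates II, III, IV and VI, and BMP2 samples 2030, 3600, 13500 and 9680. BMP4 samples (II, III and VI) held 1110, 2190 and 4830. BMP5 samples held 217, 622 and 894, and BMP7 samples 403, 753 and 1770, so every sample of these 4 ligands lay above every control. BMP3 samples stayed at 33.8 to 38.5, overlapping the controls. The log2 change was 6.94 ± 0.57 (SE) with BMP2, 5.65 ± 0.62 with BMP4, 4.17 ± 0.62 with BMP7 and 3.45 ± 0.62 with BMP5, with limma adjusted p of 2.327e-09, 2.4e-07, 4.485e-05 and 0.0003978. With Tgfb, TPM rose from 0.792, 1.42 and 1.01 in control replicates I, II and III to 24.9, 41.8 and 84.6, a log2 change of 4.47 ± 0.42 (limma adjusted p = 0.0002229). These groups do not overlap either.

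Clca4b, its neighbour on chromosome 3, was far more abundant at the start and moved less. Its controls held 4880 to 5680 normalized counts. BMP2 samples held 56900, 51400, 62800 and 79900 in replicates II, III, IV and VI. BMP4 samples held 27800, 31200 and 42700. Those of BMP5 held 8510, 11700 and 17700, and those of BMP7 13100, 13000 and 21400, all above the controls, while BMP3 samples (4790 to 5510) overlapped them. Log2 changes were 3.56 ± 0.20 with BMP2, 2.66 ± 0.22 with BMP4, 1.55 ± 0.22 with BMP7 and 1.20 ± 0.22 with BMP5, the last with a limma adjusted p of 0.0004968. Tgfb raised it from 189, 203 and 219 TPM to 503, 690 and 963, by 1.77 ± 0.23 (limma adjusted p = 0.0008937).

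For Clca4b the order BMP2, BMP4, then BMP7 and BMP5 held in direct tests. BMP2 exceeded BMP4 by 0.89 (limma adjusted p = 0.00153), where 66.8% of all genes differed, and BMP4 exceeded BMP7 by 1.11 (limma adjusted p = 0.000478), where 59.8% differed. Quantile normalization lowers the second difference to 0.54 (adjusted p = 0.06244). For Clca4a, BMP2 exceeded BMP4 by 1.29 with a 95% interval of -0.01 to 2.59 (limma adjusted p = 0.07365), so these neighbours in the order were not told apart. The difference passed the threshold by edgeR (adjusted p = 0.04463) and DESeq2 (0.04461), and in limma without BMP2 replicate II (0.0142) or BMP4 replicate VI (0.02273). Clca4a was higher with BMP4 than with BMP5 by 2.20 (limma adjusted p = 0.007587, with 60.1% of all genes differing). Without BMP4 replicate VI that p was 0.0519 and without BMP5 replicate II it was 0.05543. Against BMP7 the difference of 1.48 missed the threshold (limma adjusted p = 0.06121) and passed it with replicate numbers as a block (0.007182), without BMP4 replicate II (0.02333) or without BMP7 replicate VI (0.01825). BMP5 and BMP7 differed for none of the 8 genes, with 0.0136% of all genes called; for Clca4a the interval of their difference was -2.10 to 0.67 and for Clca4b -0.84 to 0.14.

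Reads of the Clca4 genes can be hard to assign. Of the 75-base stretches in annotated Clca4a transcripts, 29.5% also occur in another gene, most often the pseudogene Clca4c-ps, and for Clca4b the share is 12.6%, most often with Clca4a. The share that Clca4a made of Clca4b was measured in each sample: 0.693% to 0.933% in controls, 3.57% to 21.5% with BMP2, and 4.94% to 8.79% with Tgfb (from 0.42% to 0.7% in its controls). Clca4c-ps held at most 15.3 normalized counts. Clca4a also overlaps Gm16233 and Gm35066 on the other strand, and whether counting used strand is not given in the sources used here.

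Among CLCA and CEACAM relatives, 6 of 11 listed genes could be tested. Clca3a1, Clca3a2 and Clca3b, which lie in the same chromosome 3 cluster, fell in all 5 of these comparisons. The log2 change of Clca3b was -1.60 (BMP2), -4.30 (BMP4), -1.45 (BMP5), -1.53 (BMP7) and -3.10 (Tgfb). Clca1, a goblet cell product, rose by 1.67 with BMP2 and 3.05 with BMP4 and fell by 1.49 with Tgfb. Ceacam18 rose by 1.47 with BMP2, 3.33 with BMP4 and 0.86 with Tgfb. In counts, 2 rose and 3 fell with BMP2, 2 rose and 4 fell with BMP4, 0 rose and 3 fell with BMP5 and with BMP7, and 1 rose and 5 fell with Tgfb. Of 7 goblet markers, of which Clca1 is one, 5 rose and 1 fell with BMP4, and 3 rose and 3 fell with BMP2. None rose with BMP5, BMP7 or Tgfb, where 2, 2 and 6 fell. The part of goblet cells in the Clca1 values was not tested. Beside both lists, 36.8% of all genes tested rose and 38.4% fell with BMP2, and 33.7% and 31.4% with BMP4. These shares were 16.5% and 9.87% with BMP5, 19.2% and 13.2% with BMP7, and 27.4% and 29.3% with Tgfb. Thus Clca4a and Clca4b moved up in samples where Clca3a1, Clca3a2 and Clca3b moved down.

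Ceacam20 was raised mostly by BMP4. Controls held 107, 131, 87.8 and 161 normalized counts in replicates II, III, IV and VI, and BMP4 samples 1070, 1430 and 844. No BMP4 sample overlapped any other group. BMP2 samples (133 to 187), BMP5 samples (142 to 193), BMP7 samples (150 to 242) and BMP3 samples (71.8 to 146) all overlapped the controls. The log2 change was 3.19 ± 0.25 with BMP4 (limma adjusted p = 4.602e-09), 0.71 ± 0.25 with BMP7 (0.03847), 0.53 ± 0.25 with BMP5 (0.1355) and 0.45 ± 0.23 with BMP2 (0.09095). BMP4 exceeded BMP2 by 2.74, BMP5 by 2.66 and BMP7 by 2.48, each past the threshold by limma. BMP2 and BMP5, where 65% of all genes differed, and BMP2 and BMP7, where 62.8% did, were not told apart for Ceacam20, with intervals of -0.61 to 0.45 and -0.79 to 0.27. With the same total in every sample, the second difference was -0.65 and passed the threshold (adjusted p = 0.03212).

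The BMP7 call for Ceacam20 is weak: leaving out control replicate II, III or IV or BMP7 replicate III or VI gave adjusted p of 0.0508 to 0.1487. The call was also lost with no filter (0.05986) or with samples scaled to the same total (0.05695). Its BMP2 value passed the threshold without control replicate VI (0.03576). That value depended on the scaling: it was 0.90 with quantile normalization (adjusted p = 0.002071) and -0.01 with the same total. With Tgfb it moved from 4.06 to 5.95 TPM in controls to 8.25, 7 and 8.06 TPM, groups that do not overlap, by 0.50 ± 0.15 (limma adjusted p = 0.02548). Without Tgfb replicate I or III that p was 0.08504 or 0.08075, and with no filter 0.06266.

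Ephx2 rose with BMP4 and fell with Tgfb. Controls held 786, 839, 1620 and 1740 normalized counts in replicates II, III, IV and VI, and BMP4 samples 4400, 4760 and 5210, all above every other sample of the table. BMP2 samples held 520, 678, 889 and 1050 in the same order of numbers. BMP5 samples held 721, 609 and 1160 and BMP7 samples 645, 658 and 1110, and each of these groups overlapped the controls. The log2 change was 2.03 ± 0.32 with BMP4 (limma adjusted p = 1.747e-05). It was -0.62 ± 0.29 with BMP2 (0.06252), -0.55 ± 0.32 with BMP5 (0.2255) and -0.59 ± 0.32 with BMP7 (0.169). BMP4 exceeded BMP2 by 2.66, BMP5 by 2.58 and BMP7 by 2.62 (limma adjusted p of 5.999e-07, 2.989e-06 and 2.633e-06). In the TGFb table, Ephx2 went from 44.7, 37.7 and 45.9 TPM to 24.7, 18.7 and 21.9, with no overlap, and dropped by 0.95 on the log2 scale (limma adjusted p = 0.0009535).

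Ephx2 varied with the replicate number: its controls differed 2.21-fold, and replicate II was the lowest in 5 of 6 groups. At the same number, BMP5 samples held 0.917, 0.726 and 0.667 of their control and BMP7 samples 0.821, 0.784 and 0.638 (replicates II, III and VI), lower in 3 of 3 pairs. With the number as a block, the log2 changes of -0.42 with BMP5 and -0.46 with BMP7 passed the threshold (limma adjusted p of 0.02659 and 0.01474). BMP2 samples also lay below the control of every same number, and the blocked change was -0.62 (limma adjusted p = 0.0002858). For control and BMP2, however, the replicate III pair correlated at only 0.0182. Without the block, the BMP2 value passed the threshold by edgeR (0.03881) and DESeq2 (0.03509). It also passed with the same total (-1.08, 0.00251) and quantile normalization (-0.70, 0.04687). In limma it passed without control replicate II (0.02254), control replicate III (0.03122) or BMP2 replicate VI (0.03079).

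The enzymes around Ephx2 also rose with BMP4, and several fell with other ligands. The fall of Ephx2 itself passed the threshold with BMP2 only in some fits, and with BMP5 and BMP7 only with the block. Of 8 listed epoxide hydrolases and epoxide-forming cytochrome P450 enzymes 6 were tested; all 6 rose with BMP4 (median log2 change 2.12), and 5 fell with BMP2 (median -1.60), 4 with BMP5, 3 with BMP7 and 4 with Tgfb, with none rising. Cyp2c55, a P450 of the gut, held 1230 to 2020 normalized counts in controls, 15700 to 17400 with BMP4 and 224 to 887 with BMP2. Ephx1, the microsomal epoxide hydrolase, held 1240 to 1910 in controls, 2610 to 3910 with BMP4 and 52.9 to 133 with BMP2. General enterocyte markers moved beside them: 7 of 7 rose with BMP4, and with BMP2 4 rose and 2, Fabp1 (by -2.91) and Sis (by -3.89), fell. The part of enterocyte maturation in the Ephx2 values was not tested. In bulk RNA, a change in the share of cells of a type and a change in RNA per cell cannot be told apart.

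**Figure D3:**
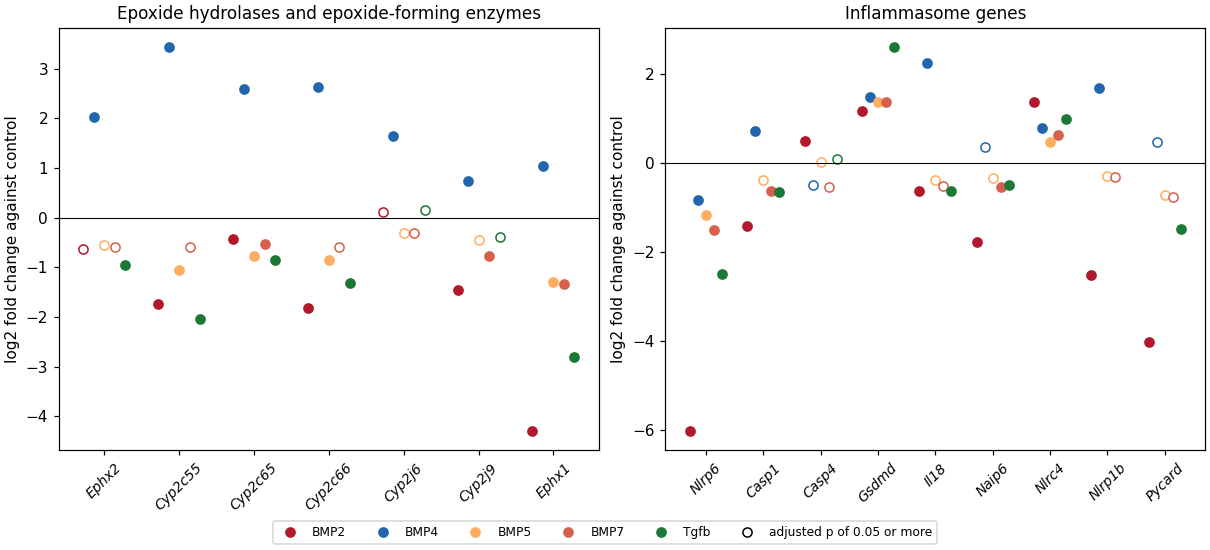
Log2 fold changes against control of Ephx2 with 6 epoxide enzymes (left) and of Nlrp6 with 8 inflammasome genes (right), by ligand; filled points passed an adjusted p of 0.05. BMP4 (dark blue) lies above 0 for all 7 genes at left, and Nlrp6 lies below 0 with every ligand shown.

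Ceacam1 was raised by BMP2, less by BMP5 and BMP7, and in the other table by Tgfb. Controls held 9520, 8840, 6760 and 7440 normalized counts in replicates II, III, IV and VI, and BMP2 samples 26400, 27500, 24400 and 31100. BMP5 samples held 12900, 14400 and 12000, and BMP7 samples 15300, 15000 and 13300. All 3 groups lay wholly above the controls. BMP4 samples, at 7780, 7550 and 9470, and BMP3 samples, at 7330 to 10400, overlapped them. The log2 change was 1.76 ± 0.13 with BMP2 (limma adjusted p = 3.994e-10), 0.85 ± 0.14 with BMP7 (0.0001166), 0.70 ± 0.14 with BMP5 (0.0009496) and 0.03 ± 0.14 with BMP4 (0.8726). BMP2 exceeded BMP4 by 1.73, BMP5 by 1.06 and BMP7 by 0.91, and BMP4 lay below BMP5 and BMP7 by 0.67 and 0.82, all past the threshold by limma. Ceacam1 rose with Tgfb from 132, 147 and 152 TPM to 205, 210 and 234, without overlap, by 0.59 ± 0.09 (limma adjusted p = 0.001595).

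The BMP4 value of Ceacam1 changed sign with the scaling. Scaling every sample to the same total gave -0.37 (adjusted p = 0.0124), where the median of all genes moved from 0.04 to -0.35, and quantile normalization gave -0.52 (adjusted p = 0.00089). The median of all genes was 0.03 in the second case. Ceacam1 shares 24.5% of its 75-base stretches with other genes, mostly Ceacam2, which held at most 17.1 normalized counts in any sample. It also overlaps 4732471J01Rik on the other strand.

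Nlrp6 fell with BMP2, BMP4, BMP5, BMP7 and Tgfb, and not with BMP3. Controls held 5420, 7130, 6800 and 7670 normalized counts in replicates II, III, IV and VI, and BMP2 samples 60.2, 88.2, 88.2 and 228. BMP4 samples held 4050, 3910 and 3360. BMP5 samples held 3390, 2590 and 3020 and BMP7 samples 1790, 2700 and 2780, so all 4 groups lay below every control, while BMP3 samples (5400 to 7050) overlapped them. On the log2 scale Nlrp6 changed by -6.03 ± 0.27 with BMP2 (limma adjusted p = 1.01e-12), -1.49 ± 0.29 with BMP7 (0.0006759), -1.17 ± 0.29 with BMP5 (0.006177) and -0.83 ± 0.29 with BMP4 (0.01806). Without BMP4 replicate VI the last p was 0.06293.

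BMP2 samples lay below those of BMP4 by 5.19 (log2), of BMP5 by 4.86 and of BMP7 by 4.53, each past the threshold by limma (changes of -5.19, -4.86 and -4.53). BMP4 and BMP5 were not told apart, with an interval of -0.32 to 0.99. BMP4 minus BMP7 was 0.66 and missed the threshold (limma adjusted p = 0.07693). It passed with the replicate block (0.04917), in a fit of the groups compared alone (0.01237) and by DESeq2 (0.04765). With Tgfb, Nlrp6 went from 106.4, 105.6 and 105.7 TPM to 18.0, 17.3 and 19.1, without overlap, a change of -2.48 ± 0.06 (limma adjusted p = 2.916e-06). No 75-base stretch of Nlrp6 occurs in another gene.

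Its inflammasome partners did not all follow. Of 10 listed, 8 were tested in the BMP table: 3 rose and 5 fell with BMP2, 5 rose and 0 fell with BMP4, 2 rose and 0 fell with BMP5, and 2 rose and 2 fell with BMP7. With Tgfb, 2 rose and 4 fell of 7. Pycard, the adaptor protein that joins Nlrp6 to caspase-1, held 2000 to 2740 normalized counts in controls, 52.9 to 339 with BMP2 and 3030 to 3170 with BMP4, the last change (0.47) not passing the test. Il18, a cytokine released by inflammasomes, rose by 2.27 with BMP4 and fell by 0.64 with BMP2. Gsdmd, the pore-forming gasdermin, rose with all 4 BMPs, by 1.18 to 1.5, and by 2.62 with Tgfb. Immune cell markers summed to 138 to 218 normalized counts with BMP4 and 63.0 to 81.8 in controls, and their part in the Il18 value was not tested. So Nlrp6 fell with BMP4 while 0 of 8 partners did, beside 31.4% of all genes tested. With BMP4 33.7% of all genes rose, and with BMP2 36.8% rose and 38.4% fell. These shares were 16.5% and 9.87% with BMP5, 19.2% and 13.2% with BMP7, and 27.4% and 29.3% with Tgfb.

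Neat1 rose with BMP2, and its samples differed widely within groups. Controls held 1120, 2910, 3500 and 3210 normalized counts in replicates II, III, IV and VI, and BMP2 samples 4390, 7000, 16600 and 12700, all above the controls. BMP4 samples held 2370, 6880 and 6200. BMP5 samples held 980, 2740 and 6570, BMP7 samples 623, 2560 and 5350, and BMP3 samples (II, III and IV) 1090, 2450 and 3150; these 4 groups overlapped the controls. The log2 change was 1.87 ± 0.66 with BMP2 (limma adjusted p = 0.01533), 0.92 ± 0.71 with BMP4 (0.266), 0.08 ± 0.71 with BMP5 (0.9492) and -0.27 ± 0.71 with BMP7 (0.7997). The BMP2 call was lost without control replicate II (0.06009) or BMP2 replicate IV (0.05352), and with the same total (1.41, adjusted p 0.06144) or quantile normalization (1.35, 0.08516). With replicate numbers as a block it was kept, at 1.87 (limma adjusted p = 3.715e-06). Of the same-numbered control and BMP2 samples, the replicate III pair correlated at only 0.0182.

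Replicate II held the lowest Neat1 value in 6 of 6 groups of the BMP table, and the highest sample of a group exceeded the lowest 2.89-fold to 8.59-fold. At the same number, BMP4 samples held 2.12, 2.36 and 1.93 times their control, higher in 3 of 3 pairs. With numbers as a block, the BMP4 change was 1.12 (limma adjusted p = 0.001842), and BMP4 exceeded BMP5 by 0.84 (0.01738; 0.3567 without the block) and BMP7 by 1.19 (0.001797; 0.1871 without, or 0.04913 without the block and BMP7 replicate VI). BMP5 samples held 0.875, 0.942 and 2.05 times their control and BMP7 samples 0.556, 0.88 and 1.67, on both sides of 1. BMP2 exceeded BMP5 by 1.78 (limma adjusted p = 0.03413) and BMP7 by 2.13 (0.01379). Without BMP5 replicate II the first p was 0.2248, and without BMP2 replicate IV or VI or BMP5 replicate III it was 0.09536, 0.07578 or 0.06603. It was 0.1016 with the same total, 0.1217 with quantile normalization and 0.06664 by edgeR. Without BMP7 replicate II the second p was 0.1277. With numbers as a block, BMP2 exceeded BMP5 by 1.58 (limma adjusted p = 9.022e-05) and BMP7 by 1.93 (1.291e-05). Of the same-numbered BMP2 and BMP7 samples, the replicate III pair correlated at -0.1071.

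**Figure D4:**
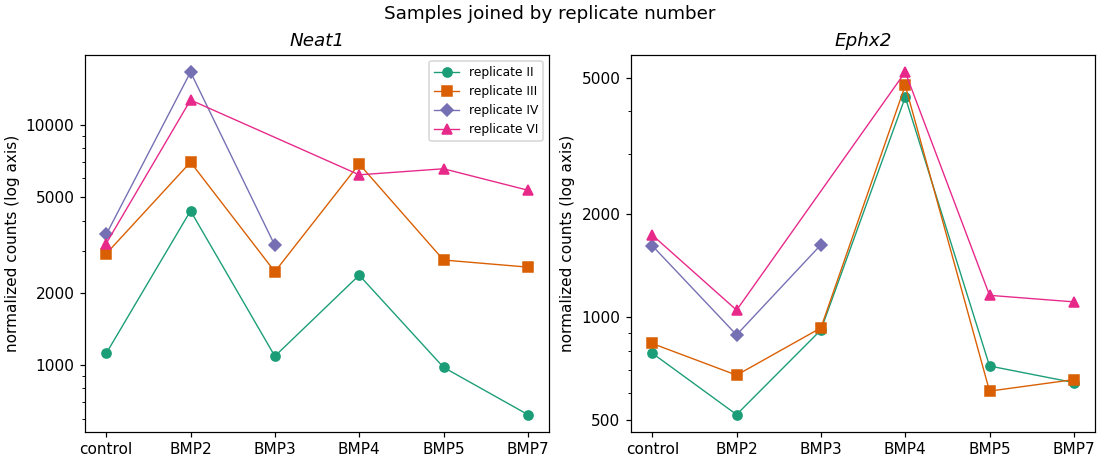
Normalized counts (log axis) of Neat1 and Ephx2 in the BMP table, with samples of the same replicate number joined by a line. Replicate II is the lowest Neat1 sample in 6 of 6 groups, and the Ephx2 lines rise together at BMP4.

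With Tgfb, Neat1 held 135, 45.7 and 119 TPM in replicates I, II and III against 49.7, 28.6 and 45.6 in controls. Replicate II was low in both groups, the groups overlapped, and the change of 1.15 ± 0.44 missed the threshold (limma adjusted p = 0.06401; 0.006324 without Tgfb replicate II, and 0.04421 with a filter of a mean of at least 10 TPM). Malat1, another nuclear noncoding RNA, rose by 2.06 with BMP2 and 1.56 with Tgfb, and its replicate II was the lowest in 4 of 6 groups, with a Pearson correlation to Neat1 of 0.62 over the 20 samples. RNA quality was not measured in the files, and its part in these values was not tested. Neat1 overlaps Gm27533, Gm27505 and Gm28006 on its own strand, and 0.77% of its 75-base stretches also occur in other genes. Of the 6 paraspeckle proteins listed beside Malat1, 5 fell with BMP4 (Sfpq by 1.09, Pspc1 by 1.19) and 3 with BMP2, and none rose; none moved with BMP5 or BMP7, and 1, Pspc1, fell with Tgfb.

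Pkib was low in every sample and passed no test against control. Controls held 9.77, 26.6, 29.3 and 14 normalized counts in replicates II, III, IV and VI, and the ligand groups 15.2 to 39.7 with BMP2, 17.8 to 31.5 with BMP3, 15.6 to 33.2 with BMP4, 10.8 to 20.1 with BMP5 and 16.3 to 21.9 with BMP7. Every group overlapped the controls. The log2 change was between -0.41 (BMP5) and 0.49 (BMP2, 95% interval -0.28 to 1.27), with limma adjusted p of at least 0.2372. BMP2 minus BMP5 was 0.90 (limma adjusted p = 0.05609), which passed the threshold by DESeq2 (0.04279) and in limma without BMP2 replicate VI (0.01988) or BMP5 replicate VI (0.02888); with quantile normalization it was 1.34 (0.005091). BMP4 minus BMP5 was 0.86 (limma adjusted p = 0.09033), which passed it without BMP4 replicate VI (0.03275) or BMP5 replicate VI (0.04657); with quantile normalization it was 1.24 (0.01337). In the TGFb table Pkib lay at 0.494, 0.0357 and 0.649 TPM in controls and at 0.167, 0.101 and 0.198 with Tgfb. Of its relatives and targets, 7 of 8 protein kinase A genes were tested. With BMP2 4 rose and 3 fell, with BMP4 and BMP5 2 rose and 2 fell, with BMP7 2 rose and 1 fell, and with Tgfb 1 rose and 2 fell of 5. Over all genes tested, 36.8% rose and 38.4% fell with BMP2, and 33.7% and 31.4% with BMP4. These shares were 16.5% and 9.87% with BMP5, 19.2% and 13.2% with BMP7, and 27.4% and 29.3% with Tgfb. Pkig, another inhibitor, fell in all 5 comparisons, by 0.33 to 1.56.

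**Figure D5:**
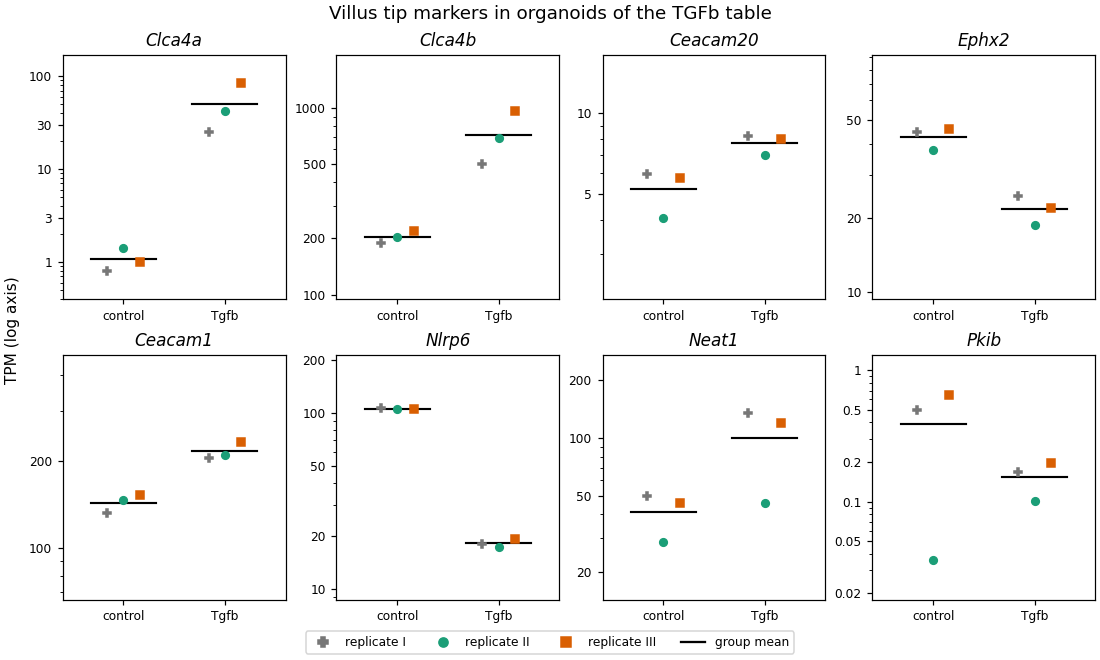
TPM (log axis) of the 8 markers in each organoid sample of the TGFb table; symbols give the replicate number and black lines the group mean. Groups are apart for Clca4a, Clca4b, Ceacam20, Ephx2, Nlrp6 and Ceacam1, and overlap for Neat1 and Pkib. The share of all genes whose groups are apart was not counted.

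Levels can be compared between genes in TPM, which accounts for length. In untreated organoids of the TGFb table the order of means was Clca4b (203 ± 15.1 TPM, SD, n = 3), Ceacam1 (144 ± 10.7), Nlrp6 (106 ± 0.441), Ephx2 (42.8 ± 4.4), Neat1 (41.3 ± 11.2), Ceacam20 (5.25 ± 1.03), Clca4a (1.07 ± 0.319) and Pkib (0.393 ± 0.319). Ephx2 and Neat1 overlap in their samples. With Tgfb the order became Clca4b (719 ± 231), Ceacam1 (216 ± 15.3), Neat1 (45.7 to 135 in its samples), Clca4a (50.5 ± 30.8), Ephx2 (21.8 ± 2.98), Nlrp6 (18.2 ± 0.891), Ceacam20 (7.77 ± 0.671) and Pkib (0.155 ± 0.0496). Samples of Neat1 and Clca4a overlap there, as do those of Ephx2 and Nlrp6.

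In the mesenchymal samples, Neat1 was the abundant member, at 129.6 TPM in fresh and 70.4 TPM in immortalised cells. Ephx2 stood at 10.8 and 0.505 TPM and Ceacam1 at 0.747 and 0.390. Clca4b and Ceacam20 were listed at 0 in both, and Clca4a, Nlrp6 and Pkib were at most 0.0212. With 1 sample each there is no replicate check. In organoids, the summed mesenchymal markers lay at 33.3 to 54.2 normalized counts with BMP2 and at 0.826 to 25.7 in controls, and their part in the Neat1 rise with BMP2 was not tested.

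Among BMP2, BMP4, BMP5 and BMP7, limma's moderated F-test called 7 of the 8 genes, beside 82% of all genes. Adjusted p was 3.026e-11 for Nlrp6, 1.619e-08 for Ceacam1, 3.165e-08 for Ceacam20, 3.864e-08 for Clca4b, 8.109e-07 for Ephx2, 0.0001785 for Clca4a and 0.03852 for Neat1; Pkib had 0.1533. Over the 20 samples the values of Clca4a and Clca4b were the most alike, with a Pearson correlation of 0.97 on the log2 scale. That of Ceacam20 and Ephx2 was 0.74, and that of Nlrp6 and Ceacam1 was -0.91. These samples fall into ligand groups and share controls, so the correlations are descriptions.

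By the same measure, the 3 genes most like each marker were Il13ra1, Sema4b and Lratd1 for Clca4a (r of 0.98 for the first), Misp, Fam214b and Prr13 for Clca4b (0.9955), and Abhd6, Acp6 and Mtm1 for Ceacam20 (0.96). They were Slc15a1, the peptide transporter of the brush border, Sult1d1 and Papss2 for Ephx2 (0.99), and Ppfibp1, Clic4 and Tpm4 for Ceacam1 (0.98). For Nlrp6 they were Ano9, Oat and St6galnac2 (0.9955), for Neat1 Gdpd3, Zfc3h1 and Rsrp1 (0.94), and for Pkib Gm47218, Gm48764 and Gm43201 (0.81). Ano9 lies on chromosome 7 like Nlrp6, with 12 RefSeq genes between them (9 of them protein-coding). Ano9 fell from 1220 to 1500 normalized counts in controls to 210 to 321 with BMP2.

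Beside these markers, 16 other villus tip genes were listed, which include Nt5e, Ada and Slc28a2 of purine metabolism and the keratin Krt20. Tgfb and BMP4 each raised 15 of these, BMP2 and BMP7 13 each and BMP5 11, and none fell. Of all genes tested, 27.4% rose with Tgfb, 33.7% with BMP4, 36.8% with BMP2, 19.2% with BMP7 and 16.5% with BMP5. Nt5e rose by 7.69 with BMP2 and 4.23 with BMP4, and Krt20 by 4.95 and 4.39. Crypt stem markers moved the other way: 5 of 5 fell with BMP2, BMP4 and Tgfb, 1 with BMP5 and 3 with BMP7. The share of all genes that fell was 38.4% with BMP2, 31.4% with BMP4, 29.3% with Tgfb, 9.87% with BMP5 and 13.2% with BMP7. Against these lists, Clca4a and Clca4b had the direction of the other tip genes with each of the 5 ligands, and Nlrp6 with none. The lists were chosen with earlier results of these data known, so this is a description only.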

How the data were processed

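For the BMP table, the authors deposited normalized counts (a signal), that is reads divided by 1 size factor per sample and rounded to 3 significant digits. This was read from the values: of 180721 values at or below 20 reads, 100% were whole multiples of what 1 read is worth. The other tables hold TPM, as deposited by the authors, as each column sums to 1000000. The submitters' processing notes name Trim Galore, Salmon, DESeq2 and GRCm39, without roles. The annotation release is not given in the sources used here.

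Groups came from the labels, and each column was matched by sample title. Tests used limma 3.58.1 (R 4.3.3) with an intensity trend on log2(value + 1), two-sided. The 6 groups of the BMP table shared a fit and the TGFb table had its own. A log2 change on this scale understates that of low genes. edgeR 4.0.16 and DESeq2 1.42.0 on the recovered reads were alternatives. The fit was tested on simulated data. Same-numbered samples deviated together (every correlation over 0.1) for BMP3, BMP4, BMP5 and BMP7 against control and for BMP2 with BMP5, BMP4 with BMP5, BMP4 with BMP7 and BMP5 with BMP7; numbers come from the titles. Blocked values are given where they change a call, and for Neat1 between BMP2 and control, BMP5 or BMP7.

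The members and gene lists were chosen with earlier results of these data known. All 8 members are named throughout, with the 3 genes most correlated to each and, of each list, paralogs of a member and at most 3 genes per comparison with the largest changes past the threshold. Shared 75-base stretches and overlaps come from GENCODE M21, and gene order and promoters from RefSeq, both on GRCm38, so no gene coordinates of the deposited tables are given.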

Additional observations from a re-analysis of the deposited data

Results flagged for a closer look

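Nlrp6 in BMP2 replicate VI, at 228 normalized counts, stood apart from the other BMP2 samples (60.2 to 88.2): its gap to the nearest was 0.833 of the group's range, over Dixon's 95% critical value for 4 samples. Chance flags about 1 in 20 groups, and 16 groups were tested. The fall of Nlrp6 with BMP2 is seen in 4 of 4 samples.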

How the results depend on the processing

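Of 95 values of the 8 genes, 49 were past the threshold, and 41 of these kept their call and direction in every alternative run. Over 798 recomputed values of called results, 772 kept their call, 26 lost it and 0 reversed; 39 values gained a call. The Ceacam1 value with BMP4 changed sign and passed the threshold with the same total (-0.3719) and with quantile normalization (-0.5219). Another 51 values, past the threshold in neither fit, changed sign, by at most 0.589; they are counted apart from reversals, a rule chosen after seeing the data, as was limiting the unfiltered TGFb fit to genes above 0 in any sample. The cause of these changes was not tested.

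The number of genes lowered by BMP2 was 2 instead of 1 (Ephx2 added) with the same total, quantile normalization, edgeR, DESeq2 and the replicate block, and 1 to 2 leaving out single replicates. That lowered by BMP4 was 2 with the same total and with quantile normalization, and 0 to 1 leaving out single replicates. With the replicate block, 2 genes were lowered by BMP5 and by BMP7, and 7 instead of 4 differed between BMP4 and BMP7. Without the block, 9.87% of all genes were lowered by BMP5, 13.2% by BMP7, and 59.8% differed between BMP4 and BMP7. Shares of all genes with the block are not given here. For BMP2 or Tgfb against control and for BMP2 with BMP4 or BMP7, not every same-numbered pair correlated over 0.1. The lowest correlations were 0.0182, 0.004, -0.04 and -0.1071. In the BMP2 comparisons only the replicate III pair fell short, and the highest correlations were 0.4212 (control), 0.2979 (BMP4) and 0.218 (BMP7). With Tgfb the highest was 0.0696. In limma with the block, adjusted p was 0.0002858 for Ephx2 with BMP2 and 0.008248 for Neat1 with Tgfb. Between BMP2 and BMP4 it was 0.02363 for Clca4a and 0.02406 for Neat1. In these comparisons the block changed no other call of these genes. Elsewhere it added calls for Neat1 (BMP4 against control, BMP5 and BMP7) and Ephx2 (BMP5 and BMP7 against control). Clca4a and Nlrp6 were also added between BMP4 and BMP7. The same total moved the split over all genes with BMP2 from 5420 higher and 5657 lower to 3627 and 7783, and with BMP4 from 4964 and 4633 to 3100 and 6864. On recovered reads, edgeR called 11108 genes with BMP2 and DESeq2 11170, beside 11077 by limma. Pkib lay at 9.77 to 39.7 normalized counts, and the part of depth in its values was not tested.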
